A study of Mus musculus with 37 samples.

Results

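The interferon-inducible GTPases of the guanylate-binding protein (GBP) and immunity-related GTPase (IRG) families were followed through 10 genes, which were chosen by name from the 24016 genes of the deposited expression table: Gbp2, Gbp3, Gbp5, Gbp7, Igtp, Irgm1, Irgm2, Iigp1, Tgtp1 and Tgtp2. The names were picked with the values of these same libraries in view, so levels and ratios are given as a description, without a test. PolyA RNA was sequenced from bone marrow-derived macrophages (BMDMs) of wild-type (WT) and Arntl-/- mice at 0, 6, 24 and 48 h after addition of Kdo2-lipid A (KLA), the lipid A part of lipopolysaccharide that activates Toll-like receptor 4 (TLR4). The WT group was male C57BL/6J mice, and the Arntl-/- group was male mice on a C57BL/6 background that lack Bmal1, the clock factor encoded by Arntl, in the whole body. The study also calls its WT controls littermates. Mice were 6 to 9 weeks old, and all bone marrow was cultured for 6 days in 20 ug/ml M-CSF before KLA. Every one of the 8 conditions was sequenced as 1 library. Differences between conditions therefore have no replicates behind them, and no source used here says whether cultures or mice were pooled.

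GBPs are large GTPases of the dynamin superfamily that assemble on vacuoles containing pathogens and on bacteria in the cytosol, where they make lipopolysaccharide accessible to inflammatory caspases. IRGs are smaller GTPases that load onto the same vacuoles and break them open. The IRGM subclass sits on the cell's own membranes and keeps the other IRGs inactive there. Both families are induced by interferon-gamma, through promoter sequences called gamma-activated sites (GAS), and by type I interferons, through interferon-stimulated response elements (ISRE). TLR4 reaches the same genes through IRF3 and interferon-beta made by the macrophage itself.

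The members are shown by their nucleotide-binding P-loop, the stretch that holds the phosphates of GTP. It is shown here as coding DNA on the gene's strand (24 bases, mm9), with the codon of the residue that sets the IRGM genes (methionine) apart from the GBPs and the other IRGs (lysine) in capitals. Igtp, Irgm1 and Irgm2 shared the same 24 bases with a methionine codon, the hallmark of the IRGM subclass. Tgtp1 and Tgtp2 shared another 24 bases with a lysine codon, and the 4 GBPs each had their own sequence with a lysine codon.
Igtp (chr11:58019777-58019800): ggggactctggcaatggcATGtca
Tgtp1 (chr11:48801169-48801192): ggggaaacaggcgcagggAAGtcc
Gbp2 (chr3:142286790-142286813): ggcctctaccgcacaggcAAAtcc
Gbp3 (chr3:142224842-142224865): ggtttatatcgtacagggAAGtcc
Gbp5 (chr3:142163653-142163676): ggtctttatcgcacaggcAAAtcc
Gbp7 (chr3:142197619-142197642): ggactataccgtacgggaAAAtcc
Over their coding sequences the GBPs were 56.1% to 76.5% identical in pairwise alignments, and the 3 IRGM genes were 64.0% to 68.3% identical. Tgtp1 and Tgtp2 were 99.7% identical (1244 of 1248 aligned columns). Of the 50-base stretches of their transcripts, 91.4% and 90.6% occurred in another gene as well, against 0% to 10.1% for the other 8 members, so the division of reads between Tgtp1 and Tgtp2 is uncertain.

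All 10 member promoters, taken as 250 bases before to 50 bases after the annotated start, held the ISRE core, read on either strand as GAAA, any 2 bases and GAAA, against 3.51% of 23951 promoters of the same length. The GAS core TTCNNNGAA was found in 7 of 10 members and in 7.95% of all promoters. An NF-kB-like match was found in 5 of 10 members and 56.0% of all promoters, and the E-box CACGTG, the sequence that Bmal1 and Clock bind, in 0 of 10 members and 7.75% of all promoters. In Igtp, Irgm2, Tgtp1 and Tgtp2 the GAS match began 11 bases before the ISRE match on the same strand. This spacing, noticed after the sequences were seen, was present in 6 of 23951 promoters (0.0251%), of which 4 were these members. The Igtp and Irgm2 promoters were 72.8% identical and those of Tgtp1 and Tgtp2 67.0%, so the 4 are not independent cases. The sequences before the start are shown to compare this arrangement with that of Gbp2, Gbp5, Gbp7 and Irgm1, with ISRE and GAS matches in capitals.
Igtp (chr11:58012948-58013057, plus strand): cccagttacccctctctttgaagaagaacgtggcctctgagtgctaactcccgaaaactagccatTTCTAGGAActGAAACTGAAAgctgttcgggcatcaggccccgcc
Irgm2 (chr11:58028369-58028478, plus strand): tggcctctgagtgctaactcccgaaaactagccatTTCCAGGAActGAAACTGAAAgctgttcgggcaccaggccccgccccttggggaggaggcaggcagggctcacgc
Tgtp1 (chr11:48805749-48805858, minus strand): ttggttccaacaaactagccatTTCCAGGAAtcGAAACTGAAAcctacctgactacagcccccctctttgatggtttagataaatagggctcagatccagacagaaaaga
Tgtp2 (chr11:48877715-48877824, minus strand): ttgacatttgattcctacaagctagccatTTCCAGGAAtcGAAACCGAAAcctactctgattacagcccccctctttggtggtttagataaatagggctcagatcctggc
Gbp2 (chr3:142283517-142283626, plus strand): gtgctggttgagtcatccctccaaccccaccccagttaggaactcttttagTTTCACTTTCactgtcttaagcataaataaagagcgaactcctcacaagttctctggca
Gbp5 (chr3:142159728-142159897, plus strand): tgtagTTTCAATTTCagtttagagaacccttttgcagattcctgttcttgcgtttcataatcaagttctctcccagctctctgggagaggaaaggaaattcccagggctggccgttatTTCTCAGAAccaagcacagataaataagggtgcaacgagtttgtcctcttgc
Gbp7 (chr3:142193190-142193299, plus strand): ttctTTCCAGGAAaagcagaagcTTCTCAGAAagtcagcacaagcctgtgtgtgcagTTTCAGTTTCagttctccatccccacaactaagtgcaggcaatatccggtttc
Irgm1 (chr11:48684849-48684958, minus strand): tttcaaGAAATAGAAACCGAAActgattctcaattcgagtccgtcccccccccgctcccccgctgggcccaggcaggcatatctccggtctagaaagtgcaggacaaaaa
Irgm1 had a pair of overlapping ISRE matches, which run together in capitals, and no GAS match. Gbp7 had GAS matches that began 106 and 87 bases before the start and an ISRE match at 53 bases. The Gbp5 ISRE match lay farther out, at 165 bases, with GAS matches at 52 bases and, outside the stretch shown, at 245 bases. A match of letters is a description, not a binding site.

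**Figure D1:**
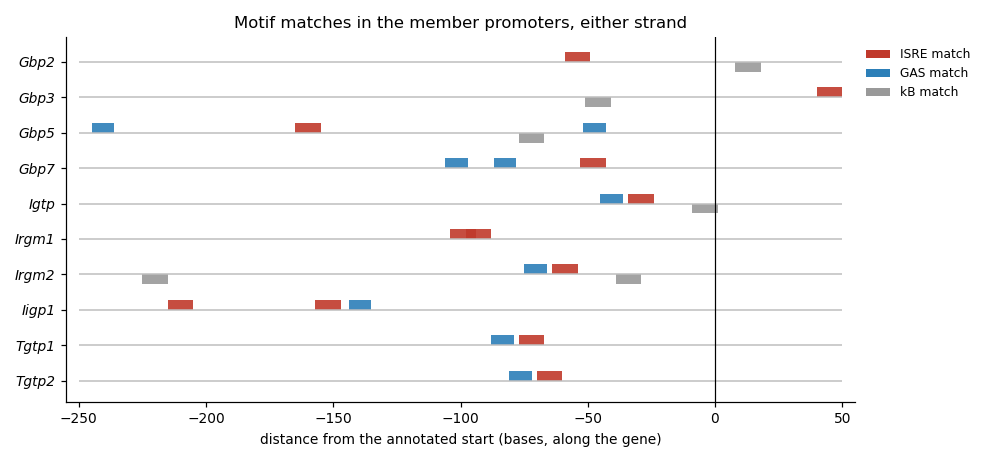
Positions of ISRE, GAS and NF-kB-like (kB) matches in the promoters of the 10 members; the horizontal axis is the distance in bases from the annotated start, along the gene, and each bar is 1 match on either strand. ISRE matches are present in all 10 promoters, and in Gbp3 the match lies 40 bases after the start.

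Reads on genes ranged from 8587560 to 27036783 per library, with the most in WT macrophages at 6 h. Values are FPKM, which the authors computed per 10000000 reads, divided by a size factor for each library (0.918 to 1.13) and called scaled FPKM here. Differences between libraries are on the log2(scaled FPKM + 0.1) scale. Because whole reads could be worked out from the values, ratios are given with 95% counting intervals, which cover the counting of reads only and not the spread between mice or cultures. Arntl itself was at 32.3 to 38.7 scaled FPKM in the WT libraries and at 11.3 to 20.2 in the Arntl-/- libraries, lower in Arntl-/- at every time. The 8 macrophage markers, among them Csf1r and Lyz2, were present in every library and summed to 15088 to 37621 in WT and 16992 to 33590 in Arntl-/- macrophages. Their median log2 ratio of Arntl-/- to WT was 0.40 at 6 h, against -0.24, -0.13 and -0.11 at 0, 24 and 48 h, and the lowest sum was that of WT at 6 h. Of 8 T cell markers in the table Cd3e, Cd3g and Cd8b1 were at 0 in all 8 libraries, and the list summed to 3.03 to 15.9 in WT and 2.40 to 7.18 in Arntl-/- macrophages. Of 7 NK cell markers Gzma and Eomes were at 0, and no NK marker had more than 6 reads. The sum of the 7 neutrophil markers was higher in Arntl-/- macrophages at 0, 6 and 24 h and close to WT at 48 h. It was 528, 545, 622 and 928 in WT and 942, 1033, 859.5 and 943 in Arntl-/- macrophages at 0, 6, 24 and 48 h, with S100a8 and S100a9 making up most of it and Mpo at 0 throughout. The 6 stromal markers summed to 481 to 1359 in WT and 360 to 771 in Arntl-/- macrophages. The part of these marker differences in the results that follow was not tested, and in bulk RNA fewer cells of a type and less RNA per cell cannot be told apart.

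KLA was followed by higher levels of the whole group in both genotypes. All 10 members passed the expression filter, which kept genes with a WT maximum of scaled FPKM times length in kb of at least 74.5. In WT macrophages at 6 h, 10 of 10 members were at least 1.5-fold above 0 h, where 4.31% of genes analysed were. The median member was 3.54-fold higher at 6 h, with a range of 1.03 to 2.47 on the log2 scale and a median of -0.03 over all genes. At 24 h 10 of 10 members were at least 1.5-fold above 0 h (7.94% of genes) with a median of 2.27-fold, and at 48 h again 10 of 10 (12.7% of genes) with a median of 2.73-fold. Arntl-/- macrophages showed 10 of 10 members past this fold at 6 h (2.79% of genes), with a median of 2.70-fold. They showed 10 of 10 at 24 h (7.35% of genes, median 2.34-fold) and 9 of 10 at 48 h (14.8% of genes, median 2.33-fold), Gbp7 being the exception at 1.43-fold. In WT macrophages 4 of 10 members (Gbp5, Gbp7, Tgtp1 and Tgtp2) were at least 1.5-fold lower at 24 than at 6 h, where 7.06% of genes were. In Arntl-/- macrophages 1 of 10, Gbp2, was that much lower (5.35% of genes). A dip at 24 h in WT was not common to all members. Irgm1 and Irgm2 were at 318 and 189 at 24 h against 331 and 181 at 6 h, and Iigp1 fell further, from 30.7 at 24 h to 22.2 at 48 h.

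**Figure D2:**
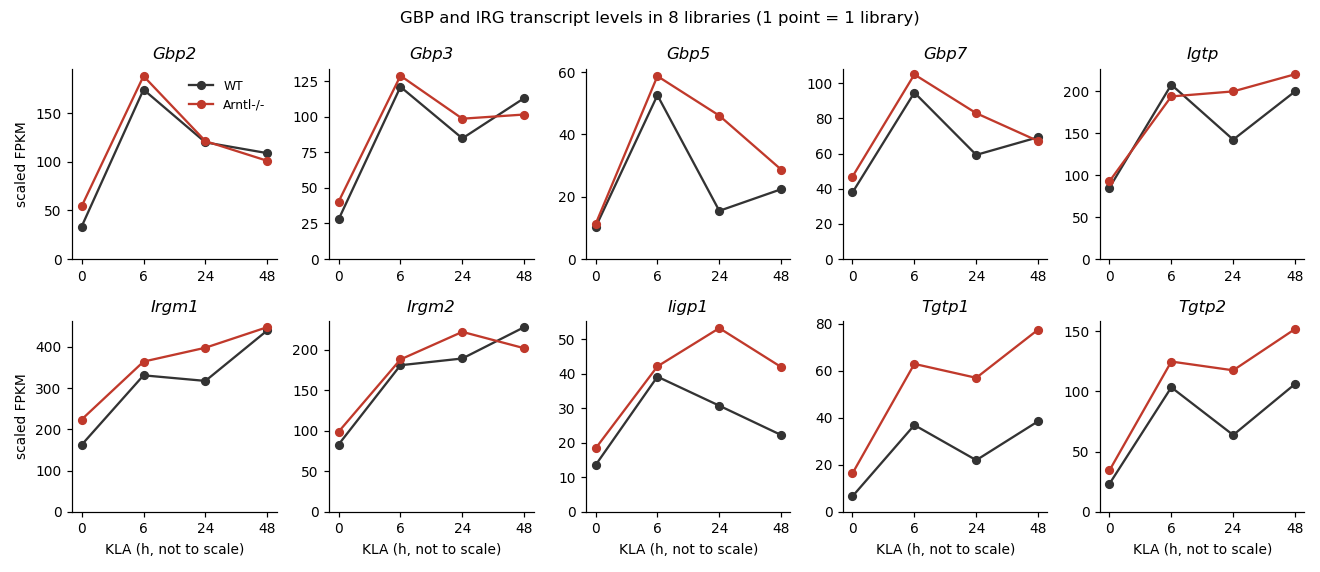
Scaled FPKM (vertical axis, from 0, a separate scale for each gene) against hours of KLA for the 10 members, with 1 point per library and lines joining WT (black) and Arntl-/- (red) libraries. The 24 h points lie apart for Gbp5 (15.5 in WT and 46.1 in Arntl-/-), while the 6 h points of most members lie close together.

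The median member stood above WT in Arntl-/- macrophages by more at 0 and 24 h than at 6 and 48 h, with exceptions such as Iigp1, which stood highest at 48 h. Untreated Arntl-/- macrophages were above WT for 10 of 10 members, by a median log2 ratio of 0.45, against -0.02 over all genes. Of these, 2 of 10 (Gbp2 and Tgtp1) were at least 1.5-fold higher, where 2.18% of genes were. Without size factors 4 members passed at 0 h, where 3.34% of genes did and the median over all genes was 0.06. With size factors, but over the wider set of genes with at least 1 FPKM in a library, many of them with few reads, the share of genes 1.5-fold higher was 12.8%, 9.04%, 12.8% and 15.3% at 0, 6, 24 and 48 h. At 6 h the median was 0.12, with 9 of 10 members above WT, and 1 of 10 (Tgtp1) was at least 1.5-fold higher, where 1.88% of genes were. Without size factors the 6 h median was -0.0099, and with Tgtp1 and Tgtp2 summed 0 members passed. At 24 h Arntl-/- macrophages were again above WT for 10 of 10 members, by a median of 0.49, and 4 of 10 (Gbp5, Iigp1, Tgtp1 and Tgtp2) were at least 1.5-fold higher, where 2.61% of genes were. At 48 h the median was 0.08, with 6 members above and 4 below WT, and 2 of 10 (Iigp1 and Tgtp1) were at least 1.5-fold higher (4.27% of genes). At a 2-fold threshold 1, 0, 2 and 1 of 10 members were higher at 0, 6, 24 and 48 h, where 0.309%, 0.134%, 0.34% and 0.772% of genes were. No member was 1.5-fold lower in Arntl-/- macrophages at any of the 4 times, a call made for 1.58%, 1.78%, 2.2% and 4.91% of genes at 0, 6, 24 and 48 h. The 0 h libraries of each genotype enter both the time course and the comparison of genotypes, so a higher start in Arntl-/- macrophages makes their later fold smaller.

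**Figure D3:**
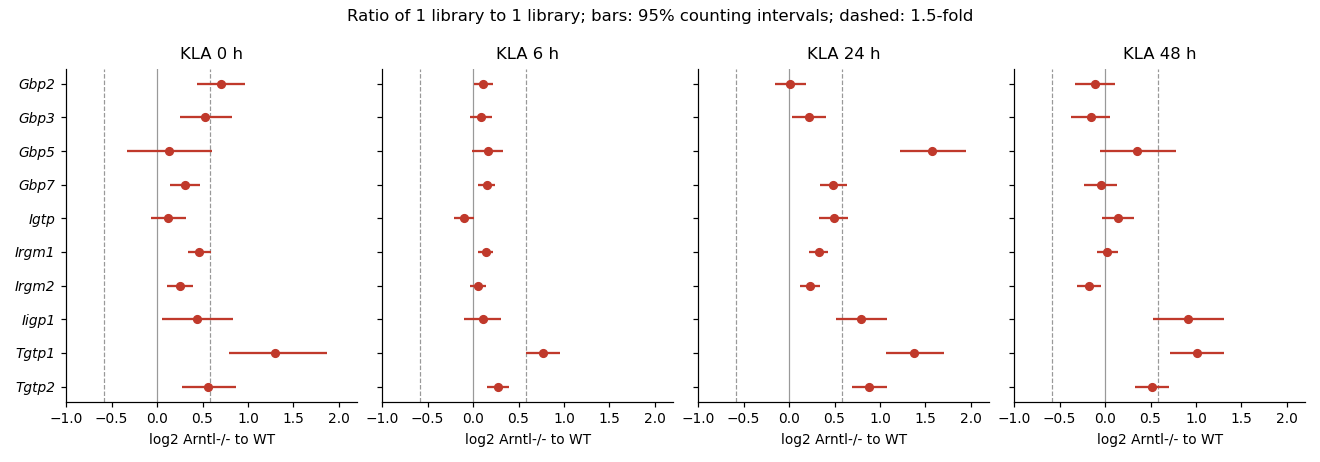
Log2 ratio of the Arntl-/- library to the WT library (horizontal axis) for the 10 members at each time; bars are 95% counting intervals of 1 library against 1 library, and dashed lines mark 1.5-fold. Tgtp1 lies beyond 1.5-fold at all 4 times, by a division of reads from Tgtp2 that is uncertain (their sum is at 1.34-fold at 6 h), and Gbp5 at 24 h alone.

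**Figure D4:**
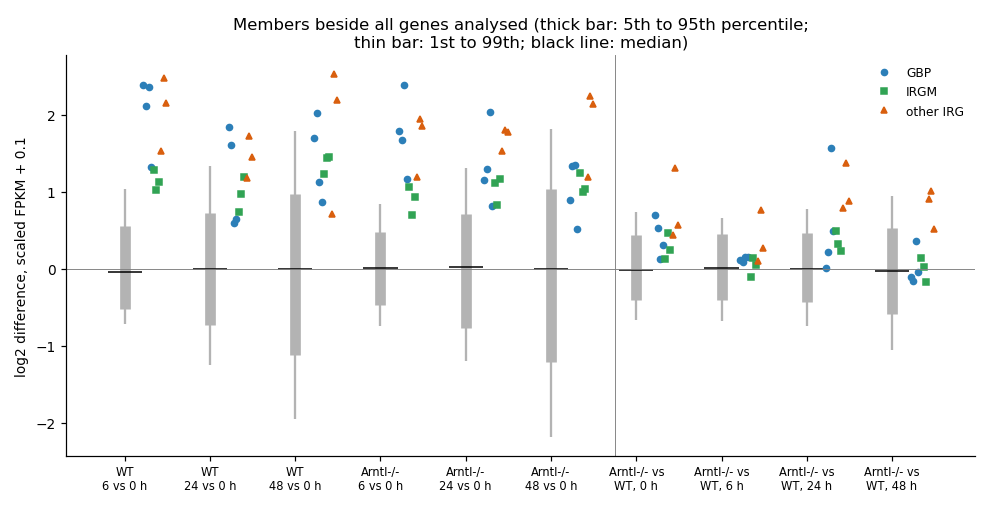
Log2 differences (vertical axis) of the members, coloured by class, beside the distribution over all genes analysed, for the KLA response of each genotype and for the genotypes at each time. In the WT 6 h comparison the lowest member (1.03) lies at the 99th percentile of all genes (1.03), whereas several members of the genotype comparisons lie inside the 5th to 95th percentile bar.

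The 4 GBPs each had their highest level at 6 h in both genotypes. Gbp2, which coats vacuoles and cytosolic bacteria, was at 33.4, 174, 120.0 and 109 scaled FPKM in WT macrophages at 0, 6, 24 and 48 h and at 54.3, 188, 121 and 101 in Arntl-/- macrophages. Its 6 h value was 5.21-fold the 0 h value in WT (interval 4.47 to 6.13) and 3.46-fold in Arntl-/- macrophages (3.10 to 3.89). The ratio of Arntl-/- to WT was 1.62 at 0 h (1.36 to 1.95), 1.08 at 6 h (1.004 to 1.16) and 1.01 at 24 h (0.900 to 1.13). Gbp3, also at its highest at 6 h, was at 27.9, 121, 84.9 and 113 in WT and 40.3, 129, 98.7 and 102 in Arntl-/- macrophages. Gbp7, linked to assembly of the phagocyte oxidase on phagosomes, was at 37.9, 94.7, 59.3 and 69.3 in WT and 46.9, 105, 83.0 and 67.1 in Arntl-/- macrophages. At 24 h the Arntl-/- value of Gbp7 was 1.40-fold the WT value (1.26 to 1.55), and at 48 h 0.968-fold (0.854 to 1.10).

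Gbp5, a GBP linked to inflammasome assembly, had the largest genotype ratio of any member at a single time, at 24 h. Its interval there overlapped that of Tgtp1 (2.59, 2.09 to 3.26). By the mean log2 ratio over the 4 times Gbp5 (0.55) was below Tgtp1 (1.11), and close to Iigp1 and Tgtp2 (0.56 each). Its values were 10.2, 52.6, 15.5 and 22.4 in WT macrophages and 11.2, 58.7, 46.1 and 28.7 in Arntl-/- macrophages at 0, 6, 24 and 48 h. The genotypes were within 1.12-fold of each other at 0 and 6 h and stood apart at 24 h, when Arntl-/- macrophages held 2.96-fold the WT level (2.32 to 3.85), from 347 and 78 reads. The 24 h value was 0.296-fold the 6 h value in WT (0.230 to 0.372) and 0.784-fold in Arntl-/- macrophages (0.680 to 0.904). At 48 h the ratio of the genotypes was 1.28 (0.961 to 1.71), an interval that includes 1.

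The IRGM genes together held 51.2% to 68.4% of the summed scaled FPKM of the 10 genes in each library. Irgm1, a regulator of the other IRGs that is also needed for control of mycobacteria, was the highest member in all 8 libraries, at 162, 331, 318 and 440.2 in WT and 224, 365, 398 and 448 in Arntl-/- macrophages. Its values at 48 h were the highest of each genotype, and the genotypes differed by 1.38-fold at 0 h (1.26 to 1.51) and 1.02-fold at 48 h (0.942 to 1.10). The counting setting kept at most 3 tags per position, and Irgm1 in WT macrophages at 6 h was the densest member, with 3595 reads on 2222 exon bases (1.62 per base). Igtp, also called Irgm3, was at 85.1, 208, 142 and 199.8 in WT and 92.7, 194, 199.8 and 220.3 in Arntl-/- macrophages. Irgm2 was at 82.9, 181, 189 and 228 in WT and 98.6, 188, 222 and 202 in Arntl-/- macrophages. For both genes the 24 h ratio was above 1, at 1.40 for Igtp (1.26 to 1.57) and 1.17 for Irgm2 (1.09 to 1.26). At 48 h Irgm2 was lower in Arntl-/- macrophages, at 0.886-fold (0.810 to 0.969).

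The other IRGs, which load onto pathogen vacuoles, differed between the genotypes more than the IRGM genes did at every time, by the median of 3 genes each (log2 0.56, 0.27, 0.88 and 0.91 against 0.25, 0.06, 0.33 and 0.03 at 0, 6, 24 and 48 h). The classes overlapped at 0 and 6 h, where Iigp1 (0.44 and 0.11) was below Irgm1 (0.46 and 0.14), and the other 2 genes of the class are Tgtp1 and Tgtp2, whose reads are divided uncertainly. Iigp1, also called Irga6, was at 13.5, 39.1, 30.7 and 22.2 in WT and 18.3, 42.1, 53.2 and 41.9 in Arntl-/- macrophages. The WT course had its maximum at 6 h and the Arntl-/- course at 24 h, and the ratio was 1.73 at 24 h (1.43 to 2.10) and 1.88 at 48 h (1.44 to 2.48). Tgtp1 was at 6.56, 36.9, 21.9 and 38.5 in WT and 16.3, 62.9, 56.9 and 77.4 in Arntl-/- macrophages. Its near-identical neighbour Tgtp2, at 2 genomic copies in the table, was at 23.1, 103, 63.7 and 106 in WT and 34.3, 125, 117 and 152 in Arntl-/- macrophages. Both encode Irgb6, which binds the vacuole membrane early.

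Since reads cannot be divided safely between Tgtp1 and Tgtp2, their summed level was compared as well. The Tgtp2 entry covers 2 genomic copies, and the place of the second copy is not given. If it is that of Tgtp1, the sum counts some reads again, and the share and its intervals treat overlapping entries as separate. Whether it is was not tested. The sum was 29.7, 140.1, 85.6 and 145 in WT and 50.6, 188, 174 and 229 in Arntl-/- macrophages. The ratio of the genotypes was 1.70 (1.43 to 2.04), 1.34 (1.25 to 1.44), 2.04 (1.82 to 2.28) and 1.58 (1.42 to 1.77) at 0, 6, 24 and 48 h, above 1 in each interval. The share of Tgtp reads assigned to Tgtp1 was 22.03%, 26.2%, 25.6% and 26.6% in the WT libraries. It was 32.2%, 33.5%, 32.6% and 33.7% in the Arntl-/- libraries. Every Arntl-/- share was above every WT share, but the exact intervals overlapped at 0 h (16.2% to 28.9% and 27.9% to 36.8%) and at 24 h (21.4% to 30.1% and 29.98% to 35.3%). Exact Clopper-Pearson 95% intervals of the share were 24.3% to 28.3% in WT and 30.9% to 36.1% in Arntl-/- macrophages at 6 h, the time with the most reads.

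In WT macrophages at 0 h the order of the members by level ran Irgm1, Igtp, Irgm2, Gbp7, Gbp2, Gbp3, Tgtp2, Iigp1, Gbp5 and Tgtp1, from 162 to 6.56 scaled FPKM, a measure per exon length. The counting intervals of neighbours overlapped for Igtp and Irgm2, for each neighbouring pair from Gbp7 to Tgtp2, and from Iigp1 to Tgtp1. At 6 h in WT macrophages Gbp2 had moved up to the fourth place at 174, next to Irgm2 at 181. Across the 8 libraries, which share 4 times and 2 genotypes, the members' log2 values correlated in each of 45 pairs, with Pearson's r from 0.69 (Gbp5 and Irgm1) to 0.98 (Igtp and Tgtp2), given as a description.

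The interferons that induce these genes were near the limit of detection at the 4 times analysed. Ifng had 2 reads in Arntl-/- macrophages at 24 h and 0 in the other 7 libraries. Ifnb1 had 1 and 4 reads in Arntl-/- macrophages at 0 and 6 h and 0 in every other library, including WT at 6 h, where 0 reads allows up to 3. The 7 interferon-alpha and interferon-lambda genes listed were at 0 in all 8 libraries. Secreted protein was not measured here, and no time between 0 and 6 h was analysed, so an earlier transient rise would not be seen. Among cytokines that promote interferon-gamma production, Il12a, Il12b, Il18 and Il27 lay below the expression filter. At 48 h Il18 was at 21.8 scaled FPKM in WT and 62.6 in Arntl-/- macrophages (25 and 69 reads), Il27 at 12.9 and 34.5 (12 and 31 reads) and Il12a at 17.2 and 37.0 (29 and 60 reads). At 6 h Il18 was lower in Arntl-/- macrophages, at 43.6 against 54.4, and Il27 was at 46.7 against 46.9. At that time Il12a and Il12b were higher in Arntl-/- macrophages, at 19.0 against 6.81 (61 and 42 reads) and 3.65 against 1.48 (18 and 14 reads). Il12b had 0 reads in WT and 25 in Arntl-/- macrophages at 24 h. Il15, a cytokine that supports interferon-gamma-producing lymphocytes, was at 34.3, 91.3, 74.6 and 66.4 in WT and 56.7, 66.3, 78.6 and 82.5 in Arntl-/- macrophages.

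The receptors and Janus kinases that carry the signal differed little. Of 7 genes (Ifngr1, Ifngr2, Ifnar1, Ifnar2, Jak1, Jak2 and Tyk2), 0 were 1.5-fold higher or lower in Arntl-/- macrophages at any time, and the widest log2 ratio was 0.41, for Jak2 at 48 h. Among 10 transcription factors analysed, 0 were 1.5-fold higher and 1, Batf at 48 h, was lower, at -0.86. Stat2 stood highest above WT at 24 h, at 523 against 363, a log2 ratio of 0.53. Irf1, a direct activator of GBP genes, was at 177, 232, 271 and 254 in WT and 217, 228, 309 and 259 in Arntl-/- macrophages, and the log2 ratio of Irf9 was 0.36 at 0 h and -0.01 at 6 h. Of 9 inhibitors of the pathway, 2 were at least 1.5-fold higher in Arntl-/- macrophages at 0 h and 0 at the other times. These were Usp18, which blocks the type I receptor (50.2 and 104), and Socs1, which blocks Janus kinases (27.6 and 51.4). At 24 h Usp18 was at 154 in WT and 230 in Arntl-/- macrophages, just under 1.5-fold, and Socs1 at 71.7 and 59.5.

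Of 19 other GBP, IRG and very large inducible GTPase genes listed, 18 were in the table and 10 were analysed. Gvin1 and Gm4070 held nearly the same reads and were counted once here, which left 9. In WT macrophages at 6 h 6 of 9 were at least 1.5-fold above 0 h, and in Arntl-/- macrophages 6 of 9. The median log2 ratio of the genotypes was 0.20, 0.12, 0.09 and -0.03 at 0, 6, 24 and 48 h, and 1 of 9, Gm4951, was 1.5-fold higher at 0 h and 0 at later times. Gbp6 was at 49.1 to 148 in WT and 62.6 to 189 in Arntl-/- macrophages, and Gbp10 at 18.1 to 55.7 and 20.8 to 69.4. Gm12250, which encodes Irgb10, was at 29.2, 66.1, 57.5 and 93.6 in WT and 39.0, 77.2, 70.6 and 89.5 in Arntl-/- macrophages. Gbp4 and Gbp11 lay below the filter, at 7.72 to 17.8 and 0.175 to 5.63 scaled FPKM. Ifi47, another IRG gene, was not in the list and was looked at after its values were seen: it was at 111, 236, 210.0 and 228 in WT and 139, 244, 292 and 362 in Arntl-/- macrophages.

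Other interferon-stimulated genes were listed beside the members. Of 10 analysed, the numbers at least 1.5-fold higher in Arntl-/- macrophages were 3, 0, 5 and 0 over the 4 times, and 2 (Oasl1 and Cxcl10) were lower at 48 h. The highest mean ratios were those of Mx2 and Mx1, dynamin-like antiviral GTPases, with Mx2 at 1.16, 0.04, 0.88 and 0.52 and Mx1 at 0.67, -0.06, 0.73 and 0.28 (log2 ratios at 0, 6, 24 and 48 h). A list of 11 GTPase genes that interferon does not induce held dynamin superfamily genes, such as Dnm2 and Opa1, and also Rhot1 and Rhot2, which are outside it. Of these 11, 0 were past 1.5-fold in either direction at the 4 times, with median log2 ratios of -0.08, 0.07, -0.02 and -0.12.

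Machinery that acts with the GTPases was also listed. Of 7 genes linked to inflammasomes (Casp4, which encodes caspase-11, Casp1, Aim2, Nlrp3, Gsdmd, Pycard and Zbp1), 0 were past 1.5-fold between the genotypes at any time, and the highest log2 ratio was 0.52, for Aim2 at 48 h. Of 15 genes of ATG8 conjugation and its adaptors, which help place IRGs and GBPs on vacuoles, 0, 1, 0 and 3 were at least 1.5-fold higher and 1, 0, 0 and 0 lower at 0, 6, 24 and 48 h. The largest was Map1lc3a at 48 h, at 198 against 62.0, and at 0 h the same gene was the lower one, at 29.3 against 54.5.

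By a fixed measure of likeness, Pearson's r over the 8 libraries with the mean of the members' centred log2 values, the 10 most similar genes outside the members were Irak2 (r = 0.98), Cmpk2 (0.98), Ifih1, Mx2, Ly75, Helz2, Stoml1, Rsad2, Ifi203 and Gbp6 (0.95). Their amplitude differed: the 6 h log2 change in WT macrophages was 2.80 for Cmpk2 and 0.36 for Irak2. The members themselves had r from 0.91 (Gbp5) to 0.98 (Tgtp2).

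The members lay at 4 places of the genome. The 4 GBP members spanned 141 kb of chromosome 3 (142159898 to 142300972), Irgm1, Tgtp1 and Tgtp2 spanned 199 kb of chromosome 11 (48678751 to 48877714), and Igtp and Irgm2 spanned 23.2 kb farther along it (58013058 to 58036285). Iigp1 lay on chromosome 18 (60535683 to 60552283). Within 250 kb of these loci other genes were analysed as well. Of the 7 analysed beside Igtp and Irgm2, log2 genotype ratios ran from -0.38 to 0.63, and 1, Zfp692 at 24 h (153 against 98.5), was past 1.5-fold. Of the 4 beside Iigp1 they ran from -0.40 to 0.62, and 1, Gm4951 at 0 h, was past 1.5-fold. Gtf2b, Pdlim5 and Pkn2, the 3 analysed beside the GBPs, had log2 genotype ratios of -0.53 to 0.23. The 9 beside Irgm1 and Tgtp ran from -0.39 to 0.76. Past 1.5-fold among them were Ifi47 at 48 h (0.67) and Psme2b at 6 and 48 h (0.76 and 0.63). Psme2b was higher in Arntl-/- macrophages at all 4 times, at 161, 193, 171 and 175 against 135, 114, 118 and 113. Psme2b and Zfp692 were picked after their values were seen, and Psme2b overlaps 9930111J21Rik1, so without strand their reads cannot be told apart.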

How the data were processed

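RNA-seq of 8 BMDM libraries was analysed. The deposited values are FPKM per 10000000 reads, which the authors made from paired-end reads with STAR (mm9) and HOMER. RefSeq exons were counted without regard to strand, no position gave more than 3 tags, and each gene kept 1 transcript, so antisense and overlapping genes are uncertain. The table held 24016 genes after 1 broken line was removed. Another 4 value columns and the ChIP-seq samples were not analysed here.

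Median-of-ratios size factors scaled the FPKM. FPKM times length fell on whole multiples of 1 read (100% of low values, tolerance 0.1), which gave the reads behind exact conditional binomial intervals (95%, no pseudocount). Folds used a pseudocount of 0.1, and a call was a 1.5-fold difference. The filter kept as many genes as the study analysed, by their largest scaled WT value times length. The steps were tested on simulated data. Alternatives covered scaling, pseudocount, expression level, length, the Tgtp sum, fold and filter.

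Members and lists were chosen with earlier results of these data known. Genes named by rule were the members, Arntl, interferons, receptors, kinases and transcription factors of the interferon pathway, other GBPs and IRGs, the 2 highest and 2 lowest mean ratios of other lists, and the 10 genes most similar to the members. Other genes named were chosen after their values were seen.

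Promoters and P-loops were read from the NCBIM37 (mm9) genome and GENCODE M1 transcripts; Iigp1 sequence and 1 pathway gene are not reported here. Tools were matplotlib 3.10.9, statsmodels 0.14.6, scipy 1.17.1, pandas 2.3.3 and numpy 2.4.6 under Python 3.11.15.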

Additional observations from a re-analysis of the deposited data

Results flagged for a closer look

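Between consecutive times, 4 members moved in opposite directions in the 2 genotypes, with counting intervals that leave out 0 on both sides. Each rests on 1 library per condition, and the difference itself was not tested. Iigp1 went from 6 to 24 h by a log2 change of -0.35 in WT and 0.34 in Arntl-/- macrophages, a difference of 0.68. Gbp5 went from 24 to 48 h by 0.53 in WT and -0.68 in Arntl-/- macrophages, a difference of -1.21. Over the same step Gbp7 went by 0.23 and -0.31, a difference of -0.53, and Irgm2 by 0.27 and -0.14, a difference of -0.41.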

How the results depend on the processing

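Leaving out a replicate was not possible with 1 library per condition. No paired analysis was possible because each condition had 1 library, so no replicate numbers pair the samples. Matching the genotypes by time, which would treat times as replicates, was not tested; the median over members of the mean log2 ratio over the 4 times was 0.23, and 0.19 to 0.31 with each time left out. Without size factors (values as deposited) the median log2 ratio of the genotypes at 6 h was -0.0099 in place of 0.12, the median of all genes shifting to -0.12, the 48 h WT change was 1.31 in place of 1.45, and 4 members in place of 2 were 1.5-fold higher at 0 h (3.34% of genes, with a median of all genes of 0.06 in place of -0.02). With Tgtp1 and Tgtp2 summed the 6 h change was 1.53 in WT and 1.196 in Arntl-/- macrophages, and 0 members were called at 6 h. At a 2-fold threshold 1, 0, 2 and 1 members were higher at 0, 6, 24 and 48 h, where 0.309%, 0.134%, 0.34% and 0.772% of genes were. Among the 15855 genes with at least 1 FPKM in a library, many of them with few reads, 12.8%, 9.04%, 12.8% and 15.3% of genes were 1.5-fold higher and 8.79%, 11.8%, 9.57% and 12.1% lower at 0, 6, 24 and 48 h. Upper-quartile scaling, pseudocounts of 1 and 0.01, and corrections for expression level and gene length (lowess fraction 0.3) changed no direction and no count by over 1.5 times. The correction for expression level moved the 6 h median log2 ratio of the genotypes from 0.12 to 0.19. All 9 member calls stayed past 1.5-fold in the 54 values recomputed one by one.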
